A study of Mus musculus with 10 samples.

Results

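The genes described are 10 members of the AP-1 and immediate early gene families, namely Fos, Fosb, Fosl2, Jun, Junb, Jund, Atf3, Egr1, Egr2 and Ier2, out of 21938 protein-coding genes on the mouse chromosomes analysed. They were chosen by name. Each was followed through its gene body and 50 kb on each side in mm10, and the ChIP-seq peak summits of 8 lists were placed there. A summit within 2 kb of the outermost annotated start of the gene was counted as a start summit, any other summit inside the gene as a body summit, and the rest as flank summits. The 10 windows did not overlap each other.

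AP-1 is a dimeric transcription factor built from leucine zipper proteins of the Fos, Jun and Atf families. Fos proteins bind DNA only together with a partner such as a Jun protein, whereas Jun proteins can also pair with each other. Fos, Fosb, Jun, Junb, Atf3, Egr1, Egr2 and Ier2 are immediate early genes, which cells switch on within minutes of growth factor or stress signals without making new protein, largely through serum response factor and its partners at CArG boxes and through CREB/ATF proteins at cAMP response elements (CRE). In the liver they are known for their rapid induction after partial hepatectomy and for their activity downstream of Ras and MAP kinase.

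The cells were AB17, a line of primary hepatocytes from an Arid1a fl/fl mouse, immortalized with SV40 large T antigen and then transduced with an activated H-Ras virus. All groups therefore share the floxed allele, large T and the Ras transgene. The Arid1a WT cells had received an adenovirus carrying GFP (Ad-GFP) and the KO cells an adenovirus carrying Cre (Ad-Cre), which removes the floxed part of Arid1a, the DNA-binding subunit that defines the BAF form of the SWI/SNF remodelling complex. H3K9me3 and H3K27me3, the histone marks of heterochromatin and of Polycomb repression, were profiled in both genotypes. Arid1a, Brg1 (the SWI/SNF ATPase), Ctcf (the zinc finger protein that holds loop anchors) and Rad21 (a subunit of the cohesin ring) were profiled in WT cells only. Nothing can therefore be said here about these 4 proteins in KO cells.

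Each group was 1 library, so differences between genotypes stand without replicates and carry no p-value. WT and KO cells gave 143835 and 134976 H3K9me3 summits and 109601 and 86050 H3K27me3 summits, and the WT lists of Arid1a, Brg1, Ctcf and Rad21 gave 70408, 81527, 91355 and 101647. Read depth is unknown from such lists. The strength of a summit is given as the −log10 of the q-value of its peak, with a lowest listed value of 1.30. It grows with depth, so strengths are set side by side only within a list. Fewer cells with a mark and less mark per cell cannot be told apart, and a summit that is not listed may lie under the threshold. Of 8 hepatocyte marker genes, Hnf4a and Foxa2 had a WT H3K27me3 summit at the start, as did Cdh5 among 6 markers of other cell types. Over all genes, 17.2% had an H3K27me3 start summit in both genotypes and a further 6.14% in WT cells alone. Summit lists do not measure expression, so the cell type label could be checked no further.

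Some of the starts carry the letters that such genes are known for. The region from 500 bases before to 50 bases after each outermost start was searched on both strands for the AP-1 site TGANTCA, the CRE TGACGTCA and the CArG box. The search was limited to these letters, and a match describes the sequence without showing that a factor bound there. TGANTCA was present in 1 of the 10 genes and in 12.8% of all genes, TGACGTCA in 2 of the 10 and in 2.69% of all genes, and the CArG box in 2 of the 10 and in 2.85% of all genes. Internal starts far downstream of the outermost one, as in Egr1, Egr2 and Atf3, lay outside this region. A motif there was not counted, and the CArG boxes of Egr2 shown further below are not among the 2. The matches are shown as 30 bases of the GRCm38 genome on the coding strand of the gene, with the motif in capitals, so that their distances to the summits can be read.
Fos CArG box, chr12:85473571-85473600: cacaggatgtCCATATTAGGacatctgcgt
Fos TGANTCA, chr12:85473417-85473446: cgggtccacatTGAATCAggtgcgaatgtt
Fosb CArG box, chr7:19310298-19310327, minus strand: tggccgagctCCTTATATGGctaattgcgt
Jund CRE, chr8:70698724-70698753: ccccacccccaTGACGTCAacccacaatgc
Ier2 CRE, chr8:84662879-84662908, minus strand: tggtgttgcagTGACGTCActctcagtata

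The Fos CArG box began 309 bp upstream of the start and had its nearest Brg1 summit at 311 bp and its nearest Arid1a summit at 397 bp. The Jund CRE lay closer to both, at 127 bp from Brg1 and 198 bp from Arid1a. The Ier2 CRE had an Arid1a summit at 75 bp and a Brg1 summit at 150 bp. The Fosb CArG box differed from these, with the nearest Brg1 summit at 1449 bp, no Arid1a summit nearer than 18244 bp, and a Ctcf summit at 203 bp.

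In the RefSeq promoters of GRCm38.p6, which run from 250 bases before to 50 after a start, 8 of the 10 genes were matched through 12 promoters. Among 32851 promoters, 1.63% held a CArG box, and Egr2 was the member that did, in 4 of its promoters. None of these 12 promoters held TGANTCA (7.81% of all promoters) or TGACGTCA (1.79%). Egr1 and Ier2 were not searched this way, and the Jund promoter of RefSeq belongs to a start upstream of the GENCODE start, so that the CRE of Ier2 and that of Jund shown above lay outside the regions searched. The internal start of Egr1 was thus searched in neither way, and whether it holds any of these motifs is not known here. The CRE core TGACGT, which is also part of TGACGTCA, was found in Fos, Egr2 and Atf3 and in 7.51% of all promoters, and TATAAA in Fos and Junb and in 13.6% of all promoters. The last 2 searches were added after the first had been seen. The promoters of Fos, the best known of the family, and of Junb, whose start carried the strongest Arid1a and Brg1 summits of the group, are shown whole with TGACGT and TATAAA in capitals, followed by the 2 Egr2 CArG boxes.
Fos promoter, chr12:85473640-85473939: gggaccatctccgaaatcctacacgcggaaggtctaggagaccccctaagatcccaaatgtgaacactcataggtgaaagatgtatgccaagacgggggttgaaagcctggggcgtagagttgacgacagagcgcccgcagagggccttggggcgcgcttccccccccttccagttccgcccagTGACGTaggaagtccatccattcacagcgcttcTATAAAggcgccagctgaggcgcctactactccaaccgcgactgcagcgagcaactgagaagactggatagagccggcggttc
Junb promoter, chr8:84978699-84978998, minus strand: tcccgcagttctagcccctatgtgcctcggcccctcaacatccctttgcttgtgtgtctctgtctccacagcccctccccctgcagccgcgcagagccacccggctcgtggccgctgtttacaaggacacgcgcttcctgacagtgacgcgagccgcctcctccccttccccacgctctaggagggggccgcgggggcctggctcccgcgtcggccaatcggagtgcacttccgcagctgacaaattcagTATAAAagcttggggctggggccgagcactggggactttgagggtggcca
Egr2 CArG box, chr10:67537484-67537513: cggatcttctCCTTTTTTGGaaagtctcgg
Egr2 CArG box, chr10:67537787-67537816: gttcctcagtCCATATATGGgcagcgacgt

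Around the starts the ratio of observed to expected CpG ran from 0.324 in Atf3 to 0.855 in Jund, with a median of 0.667 over the 10 genes against 0.457 over all genes.

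The first question was where H3K9me3 summits lay and how they differed between WT and KO cells. In WT cells 14 H3K9me3 summits lay at the starts of 8 of the 10 genes, and in KO cells 3 lay at the starts of 2. Fos, Fosb, Jun, Jund, Egr2 and Ier2 had a start summit in WT cells and none in KO cells, which is 6 of 10 genes beside 31.4% of all protein-coding genes. Fosl2 and Junb had start summits in both genotypes, beside 7.3% of all genes. No member had a start summit in KO cells alone, which 6.69% of all genes did. With 10 genes, each gene moves such a share by 10 percentage points.

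**Figure D1:**
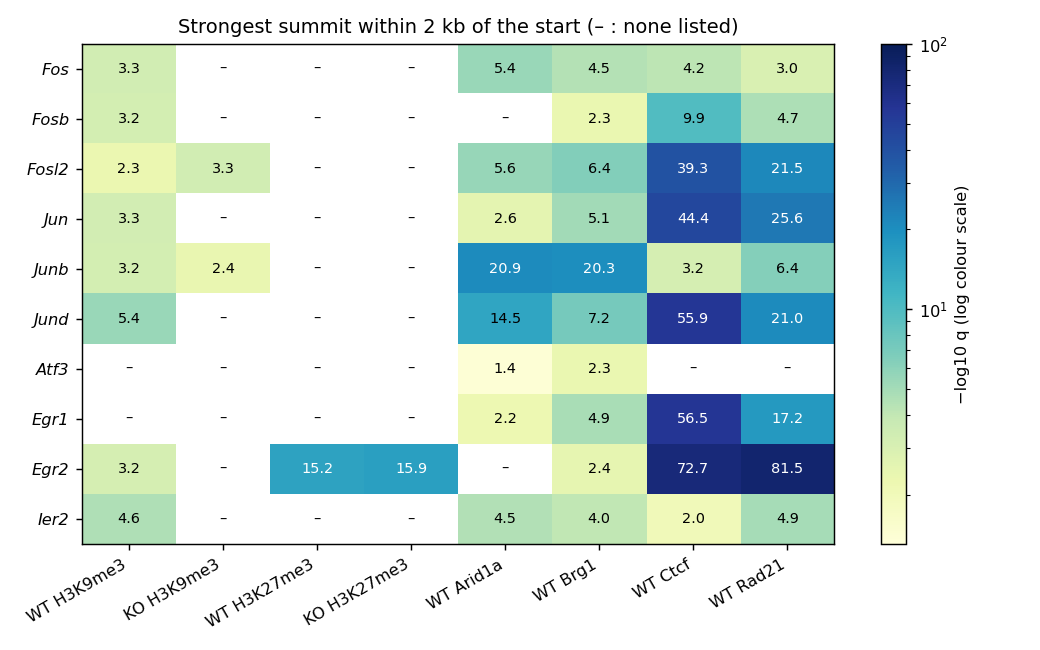
Strongest summit within 2 kb of the outermost start for each of the 10 genes (rows) in each of the 8 lists (columns), printed and coloured as −log10 q on a log colour scale, with a dash where none is listed. H3K9me3 summits fill 8 cells in WT and 2 in KO, Brg1 fills all 10, and Egr2 has the highest value of the Ctcf column, 72.7, and of the Rad21 column, 81.5.

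Among the Fos genes, Fos had a WT H3K9me3 summit of strength 3.31 at 256 bp into its first exon, and the nearest KO summit was 11641 bp away. Fosb, a Fos relative known for its truncated splice form, had WT summits of 3.25 and 2.07 at 520 and 1739 bp downstream of its start, and the nearest KO summits were 9523 and 8304 bp away. Neither gene had a KO summit at the start. Fosl2, the Fra-2 gene, was the borderline case of the 2 kb rule. Its WT summit of 2.28 lay 1985 bp downstream and its KO summit of 3.34 lay 1973 bp upstream, while a second WT summit of 3.17 lay just outside at 2012 bp upstream. The upstream WT and KO summits were thus neighbours, although the 2 kb rule took in the KO summit alone.

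Among the Jun genes, Jun had WT summits of 3.26 and 2.64 at 1121 and 293 bp, and the nearest KO summit was 24339 bp from the second. Jund, the member of the family that is expressed most steadily in resting cells, had the strongest H3K9me3 start summit of the group, 5.42 at 187 bp into its exon, and no KO summit nearer than 6996 bp. Junb, which often opposes Jun, kept the mark in both lists. Its WT summits of 3.20 and 2.41 lay 106 and 1790 bp downstream, and its KO summits of 2.37 and 1.88 lay 460 and 1495 bp downstream, at 354 and 295 bp from the nearest summit of the other genotype.

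Ier2, a small nuclear protein gene, carried 4 WT start summits, more than any other member. They had strengths of 4.60, 2.42, 2.26 and 1.47, and the nearest KO summit was 29889 bp or farther from each. Egr2, a zinc finger regulator of differentiation, had a WT summit of 3.19 at 201 bp and another of 3.31 at 11 bp from an internal start, and its nearest KO summit lay 14839 bp from the first. Egr1 and Atf3 had no start summit in either genotype under the 2 kb rule. In Egr1, the zinc finger factor induced by growth signals, WT summits of 2.25 and 2.71 lay at 2024 and 2870 bp, inside the gene and near internal annotated starts. The KO summit of the Egr1 window, of 1.82, also lay inside the gene, at 4028 bp and 2644 bp from the nearest annotated start of Egr1. In Atf3, a stress-induced partner of Jun, the outermost start lies far upstream of the promoter given by RefSeq. At that internal start WT summits of 2.64 and 1.61 lay 83 and 1333 bp away, with no KO summit within 2 kb.

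When every annotated transcript start of a gene was used, 8 of the 10 genes had H3K9me3 at a start in WT cells alone, beside 33.3% of all genes. Atf3 and Egr1 were the genes added. The 14 WT start summits had strengths between 1.47 and 5.42 with a median of 2.91. Of them 12 lay within 1 kb of a Brg1 summit, 11 of an Arid1a summit, 10 of a Rad21 summit and 9 of a Ctcf summit. No share over the start summits of all genes was counted beside these. Ier2 gave 4 of the 14, and Brg1 had a start summit at 10 of 10 genes, so near partners were partly set by the choice of starts. The part of these other proteins in the H3K9me3 summits called there was not tested.

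**Figure D2:**
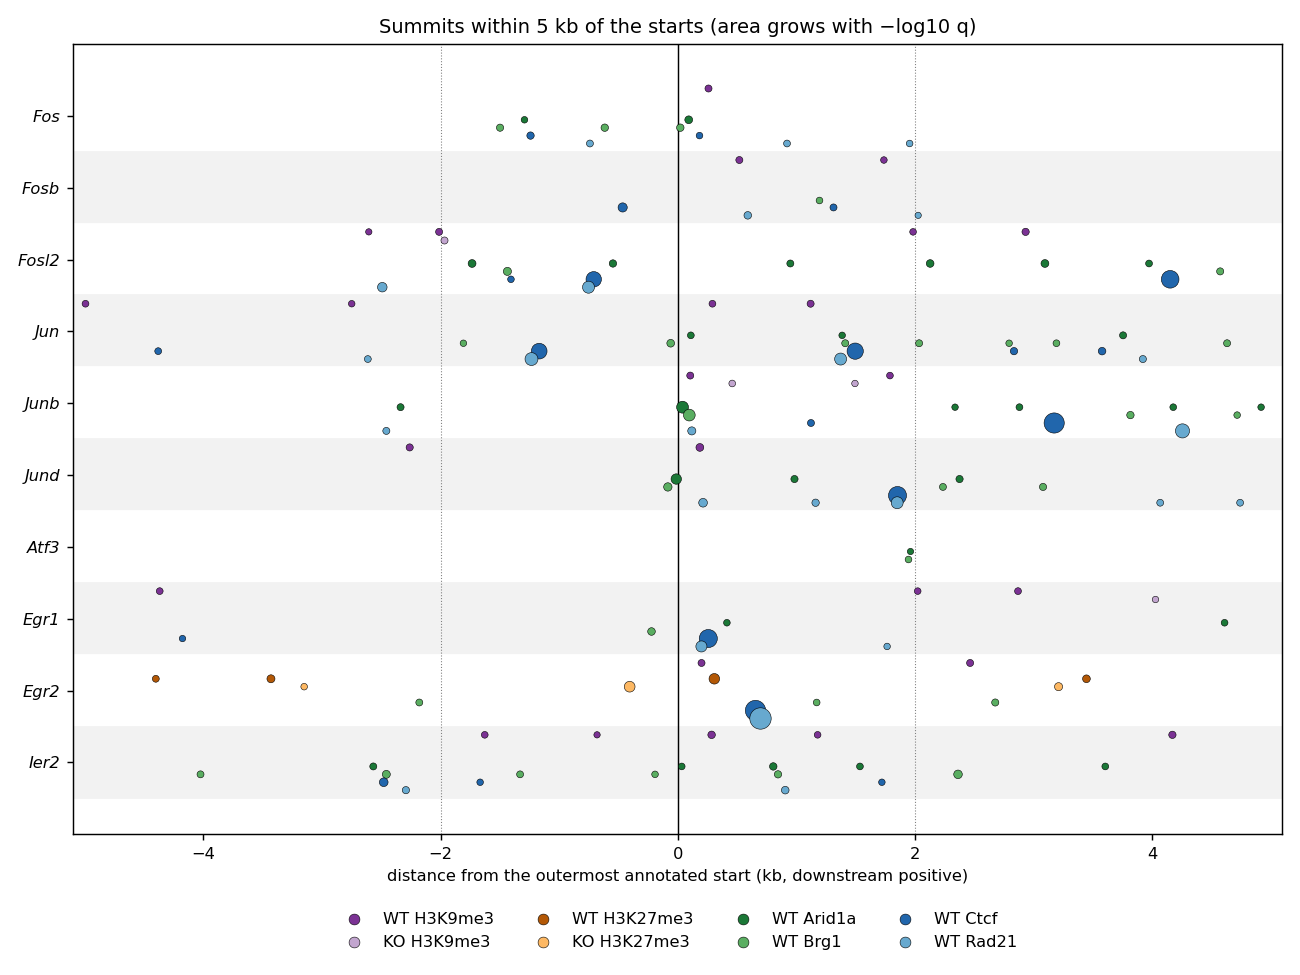
Summits of the 8 lists within 5 kb of the outermost start of each gene, by distance in kb with downstream positive, coloured by list and with an area that grows with −log10 q; dotted lines mark 2 kb. WT H3K9me3 summits stand at 8 starts inside the dotted lines and KO summits at those of Fosl2 and Junb, and the outermost start of Atf3 shows only Arid1a at 1.39 and Brg1 at 2.34.

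Summed over the whole windows, H3K9me3 was sparser in KO cells. The windows held 145 WT and 51 KO summits, a KO to WT ratio of 0.352, beside 0.938 for the whole lists. Per gene, the WT count ran from 7 to 28 with a median of 12.5 and the KO count from 1 to 15 with a median of 3.5, beside medians of 10 and 6 over all genes. The starts fell from 14 to 3 summits, the gene bodies from 18 to 3 and the flanks from 113 to 45. Leaving out each gene in turn moved the ratio between 0.301, without Egr2, and 0.392, without Fosl2.

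**Figure D3:**
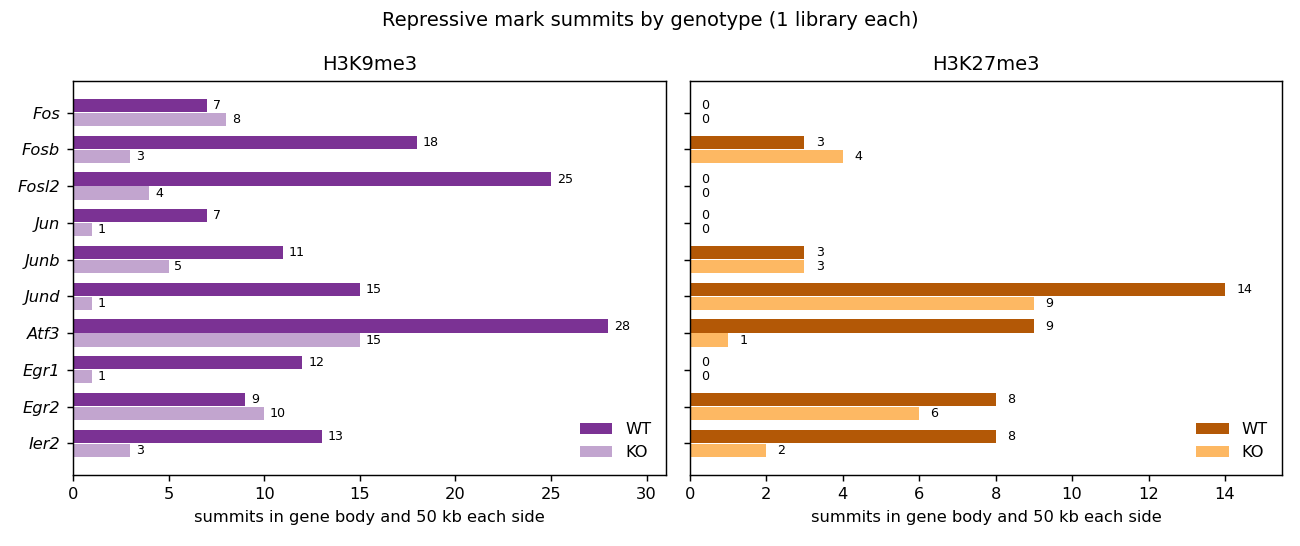
Number of summits in each gene body and its 50 kb flanks (horizontal bars) for H3K9me3 (left) and H3K27me3 (right) in WT and KO cells, 1 library each. H3K9me3 bars are longer in WT, for example 25 against 4 at Fosl2, except at Fos and Egr2, while H3K27me3 is at 0 in both genotypes at Fos, Fosl2, Jun and Egr1.

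A gene was called lower when its WT window held at least 4 summits and its KO window at most 1 for every 2 of them. By this rule 7 of the 10 genes were lower in KO cells, beside 42.8% of all genes with enough summits, and 0 were higher, beside 11.7%. Fosl2 had the largest difference in number, from 25 WT to 4 KO summits. Jund had the lowest ratio, from 15 to 1. Fosb went from 18 to 3, Ier2 from 13 to 3, Egr1 from 12 to 1, Junb from 11 to 5 and Jun from 7 to 1. Atf3, with the highest counts of both genotypes, went from 28 to 15 and just missed the rule. Fos, at 7 and 8, and Egr2, at 9 and 10, were level over the wide window.

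The counts of Fos and Egr2 depended on the width of the window. With flanks of 20 kb in place of 50 kb, Fos had 6 WT and 2 KO summits and Egr2 4 and 2. All 10 genes were then called lower, beside 51.1% of all genes, among them Ier2 at 9 and 0 and Jun at 5 and 0. The strongest KO summit of the Fos window, 3.80, lay 45911 bp downstream of the start, and that of the Egr2 window, 4.32, lay 35326 bp upstream.

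In WT cells 7 of the 145 summits in the windows had a strength of at least 5, beside 5942 of 143835 in the whole WT list. In KO cells 0 of the 51 did, beside 6542 of 134976 in the whole KO list. The 2 lists can differ in depth, so each count is read against its own list only. The strongest WT summits were 8.22 at the far upstream edge of the Egr2 window and 7.30 in an Atf3 intron. The strongest KO summit of any window was 4.53, upstream of Atf3.

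The surroundings of the genes moved in the same direction by less. In the 1 Mb on each side of the windows the 10 genes had 2124 WT and 1302 KO H3K9me3 summits, a ratio of 0.613. Most of the neighbourhood of Junb and of Ier2 is shared and counted for both genes, and each includes the window of the other. The ratio per gene ran from 0.441 around Jund to 0.977 around Jun, and the ratio of the chromosomes on which the genes lie from 0.852 to 1.13. Jun stood apart here, with 7 WT and 1 KO summits in its window and 87 and 85 around it. The count by rule also needs this background. Among genes with Brg1 and Arid1a summits at the start, 56.1% were lower over the window and 53.7% had H3K9me3 at the start in WT cells alone, and the members among them gave 6 of 8 and 4 of 8. The start count of the members was therefore near the share of other genes with SWI/SNF at the start.

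Few WT summits had a KO counterpart, in windows that held fewer KO summits to pair with. The part of this lower number in the share that follows was not tested. Of the 145 WT H3K9me3 summits in the windows, 20 had a KO summit within 1 kb, which is 13.8% (95% exact binomial interval 8.63 to 20.5, counting error only) beside 31.1% for the whole WT list. In the other direction, 22 of the 51 KO summits had a WT summit within 1 kb, 43.1% (29.3 to 57.8) beside 33.3%, a whole-list share within the interval. WT summits in the windows lay within 1 kb of Brg1 in 32.4% of cases (24.9 to 40.7) and KO summits in 11.8% (4.44 to 23.9), beside 14.9% and 7.26% of the whole lists. The KO summits were compared with Brg1 of WT cells, the only Brg1 list analysed here.

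The second question was the same for H3K27me3. Within the genes and at their starts this mark was listed only at Egr2 and, in WT cells, in the body of Atf3. The windows held 45 WT and 25 KO summits, a ratio of 0.556 beside 0.785 for the whole lists. In WT cells 8 summits had a strength of at least 5, beside 12427 in the whole WT list, and in KO cells 8, beside 10174 in the whole KO list. Leaving out each gene moved the ratio between 0.5, without Fosb, and 0.667, without Atf3. In the 1 Mb around the windows, with the same overlap of Junb and Ier2, the ratio was 0.823.

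At Egr2 the mark had a start summit in both genotypes, a WT summit of 15.2 at 309 bp downstream and a KO summit of 15.9 at 405 bp upstream. The lists do not give the extent of a peak. Further summits lay near the start, of 6.01 and 5.27 in WT cells and of 6.35 in KO cells at 3212 bp downstream. Egr2 was the 1 member of 10 with start summits in both genotypes, beside 17.2% of all genes. No member had H3K27me3 at the start in WT cells alone (6.14% of all genes) or in KO cells alone (2.58%). The Egr2 window went from 8 WT to 6 KO summits. The same start thus carried H3K27me3 in both lists, H3K9me3 in the WT list, and the strongest Rad21 start summit of the group.

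At the other genes H3K27me3 lay in the flanks, except for 3 WT summits of 1.78 each in the body of Atf3. Fos, Fosl2, Jun and Egr1 had 0 summits in either genotype. Fosb had 3 and 4, the strongest of 5.84 and 7.29 within the neighbour Ppm1n. Junb had 3 and 3, the strongest of 22.7 and 23.5 at 32882 and 33828 bp from its start, nearest to Rtbdn. Jund had 14 and 9, with the strongest at 16.0 and 18.1 in Pde4c at 44094 and 44568 bp downstream. Atf3 went from 9 weak WT summits, 3.44 at most, to 1 KO summit of 3.41, and Ier2 from 8, 3.34 at most, to 2, all within the neighbour Cacna1a.

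By the same rule 2 of the 5 genes with enough summits, Atf3 and Ier2, were lower in KO cells, beside 28.4% of all genes, and 0 were higher, beside 2.62%. This count rests on weak summits. At a strength of at least 3 it was 0, but neither Atf3 nor Ier2 then held the 4 WT summits that a call needs. That threshold therefore could not show whether the 2 genes differed. Of the 45 WT summits 22 had a KO summit within 1 kb, 48.9% (33.7 to 64.2) beside 54.4% of the whole list, and of the 25 KO summits 20 had a WT summit, 80% (59.3 to 93.2) beside 68.3%.

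The third question was which of the 4 chromatin proteins lay at these genes in WT cells. Brg1 had a summit at the start of 10 of 10 genes, beside 39.6% of all genes, and Arid1a at 8, beside 35.2%. Both were at the start of the same 8 genes, beside 26.5%. The exceptions for Arid1a were Fosb and Egr2. Ctcf and Rad21 were at 9 starts each, beside 42.5% and 50.6%, and Atf3 was the exception for both under the 2 kb rule.

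**Figure D4:**
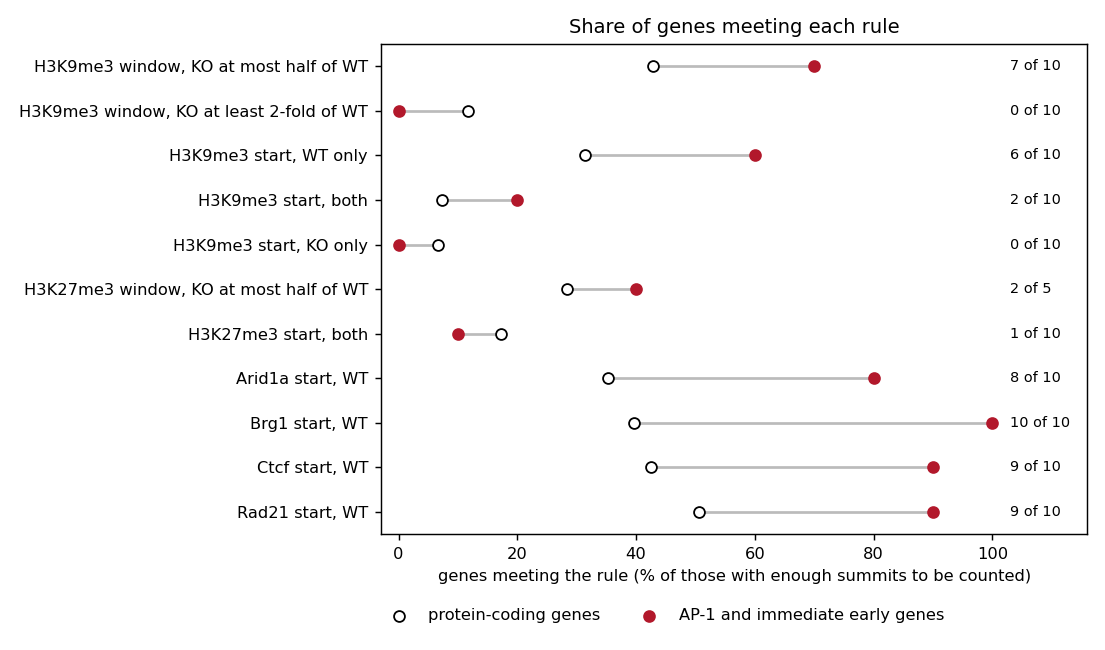
Percentage of genes that meet each rule, for the 10 genes (filled) and all protein-coding genes with enough summits to be counted (open), with the member count at the right. The 10 genes lie to the right of all genes for Brg1 (10 of 10 beside 39.6%), Arid1a, Ctcf and Rad21 and for H3K9me3 in WT cells alone, and to the left for H3K9me3 in KO cells alone.

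Junb had by far the strongest SWI/SNF summits of the group, with Arid1a at 20.9 and Brg1 at 20.3, placed 41 and 98 bp downstream of the start in the 5′ UTR. Jund followed for Arid1a with 14.5 at 12 bp upstream, and its Brg1 summit of 7.21 lay 83 bp upstream. At Fos the strongest Arid1a summit was 5.44 at 93 bp and the strongest Brg1 summit 4.49 at 22 bp, and 2 further Brg1 summits of 4.41 and 3.73 lay 615 and 1498 bp upstream. These 3 genes had both proteins within 100 bp of the start.

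At Jun the Brg1 summit of 5.12 lay 59 bp upstream and the Arid1a summit of 2.56 lay 111 bp downstream. Ier2 had 3 summits of each, the strongest at 4.51 for Arid1a and 4.01 for Brg1, which lay 806 and 846 bp downstream, both annotated as UTR. Egr1 had Brg1 at 4.86, 227 bp upstream, and Arid1a at 2.23, 415 bp downstream. When each gene was taken by its strongest Brg1 start summit, Egr2 and Fosb were the lowest beside Atf3, with 2.44 and 2.34, and both lay over 1 kb downstream.

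Fosl2 differed from the rest in the spread of the proteins over the gene. It had Arid1a start summits of 5.56, 4.22 and 3.22 and a Brg1 start summit of 6.41, and its body held 13 further Arid1a and 10 further Brg1 summits. At Atf3 the outermost start carried only Arid1a at 1.39 and Brg1 at 2.34, both nearly 2 kb downstream. The internal start had more, with Arid1a at 3.99 and Brg1 at 3.80 at 108 and 43 bp, Ctcf at 17.6 and Rad21 at 11.5.

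SWI/SNF summits coincided in the windows more often than over the whole lists. Of 129 Brg1 summits 63 had an Arid1a summit within 1 kb, 48.8% (39.9 to 57.8) beside 27.5%, and of 99 Arid1a summits 58 had a Brg1 summit, 58.6% (48.2 to 68.4) beside 31.1%. Brg1 also lay within 1 kb of Rad21 in 49.6% of cases (40.7 to 58.5) beside 27.4%. The windows also held more of these summits than the median gene, with a median of 12 Brg1 and 8 Arid1a summits beside 5 and 5. A window with more summits offers more partners by its density alone, and the part of density in these shares was not tested.

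The windows held 147 Ctcf and 168 Rad21 summits. Of the Rad21 summits 52.4% (44.5 to 60.1) had Ctcf within 1 kb and of the Ctcf summits 57.1% (48.7 to 65.3) had Rad21, beside 52.0% and 55.7% of the whole lists, so that the whole-list shares lay within the intervals. At a strength of at least 20 there were 32 Ctcf summits, spread over the windows of all 10 genes. Of them 30 had a Rad21 summit within 1 kb, at a median distance of 41.5 bp. The share over all Ctcf summits of this strength was not counted, and the 55.7% above covers Ctcf summits of every strength.

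**Figure D5:**
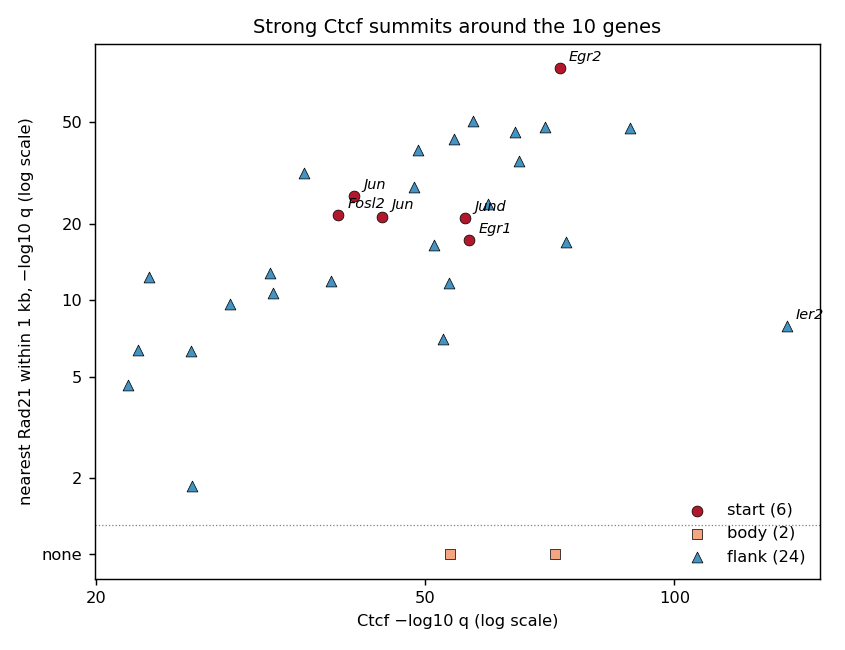
Strength of the 32 Ctcf summits of at least 20 (horizontal, −log10 q, log scale) against that of the nearest Rad21 summit within 1 kb (vertical, −log10 q, log scale), by place at the start, in the body or in the flank. The 2 body summits have no Rad21 partner, Egr2 has the strongest partner, 81.5, and the strongest Ctcf summit, 137, lies in the Ier2 window with a Rad21 partner under 10.

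The strong Ctcf summits fell into 6 at starts, 2 in bodies and 24 in flanks. The start summits belonged to 5 genes. Egr2 had Ctcf at 72.7 and Rad21 at 81.5, 655 and 694 bp downstream in an intron. Egr1 had 56.5 and 17.2, 258 and 200 bp downstream in the 5′ UTR. Jund had 55.9 and 21.0 at 1848 and 1851 bp downstream, just past the end of the gene. Fosl2 had 39.3 and 21.5 at 708 and 752 bp upstream.

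Jun was the only member of the 10 with a strong Ctcf summit within 2 kb on each side of its start. The first, 44.4, lay 1497 bp downstream in the exon with Rad21 of 21.3, and the second, 41.0, lay 1168 bp upstream in the antisense gene Junos with Rad21 of 25.6. The Jun start, its 2 WT H3K9me3 summits and its stronger Brg1 summit all lay between them. Fos, Fosb, Junb and Ier2 had weaker Ctcf start summits, of 4.18, 9.89, 3.15 and 2.0. Fos instead had 3 strong flank summits of 35.7, 48.4 and 23.2 at 14062, 18432 and 23068 bp downstream of its start.

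The 2 strong Ctcf summits without a Rad21 summit within 1 kb were 53.5 in a Fosl2 intron, 4153 bp downstream of the start, and 71.8 in Junb, 3175 bp downstream. The strongest Ctcf summit of any window was 137, in an exon of Cacna1a at 23382 bp from the Ier2 start. Of the 32 strong summits 16 had a Brg1 summit within 1 kb and 12 an Arid1a summit. Shares over all strong Ctcf summits were not counted beside these, so the counts are not read as particular to these genes.

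The core of the Ctcf consensus was looked for within 50 bp of each strong summit on both strands, with up to 2 mismatches. It was found at 15 of the 32 sites, 4 of them exact matches, beside 74.6% of the 16434 strong summits of the whole list and 8.61% of the same places moved by 2000 bp. At the starts it was found at 2 of 6, those of Jund and Jun. The sites that follow are 30 bases of GRCm38 on the strand of the match with the core in capitals, and they are shown because they belong to the strong summits of Fos, Jun and Jund, to the Fosl2 summit without Rad21, and to an Ier2 flank summit of 64.1 at 46476 bp upstream.
Fos flank, exact, chr12:85487919-85487948, minus strand: ctcccacaaCCACCAGGTGGCagagatgct
Fos flank, 1 mismatch, chr12:85492307-85492336, minus strand: ccaaaattaCCAGAAGGGGGCgcagcgact
Fos flank, exact, chr12:85496909-85496938: gagatactaCCAGCAGAGGGCgctcttcag
Fosl2 intron, 1 mismatch, chr5:32139945-32139974, minus strand: caaaaatgtCCTGTAGGGGGCactagaggg
Jun flank, 1 mismatch, chr4:95008331-95008360: tgccattttCCACCAGAGGTCactgtttct
Jun start, 2 mismatches, chr4:95053336-95053365, minus strand: gatatgactCCACCAGTGAGCggggagggg
Jund start, 2 mismatches, chr8:70700784-70700813, minus strand: gacagcgtgCACCTAGGTGGCgctcgctgc
Ier2 flank, exact, chr8:84709336-84709365: ccagggaagCCAGCAGGGGGCgctgccttc

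All 3 strong Fos flank summits thus held a match. The matches at Fos lay on both strands, minus at the first and the second site and plus at the third. The Jun flank site, with a Ctcf strength of 57.1 and a Rad21 strength of 50.5, lay 43862 bp downstream of Jun in an intron of Gm12694.

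A further 17 genes of the same families, listed with the 10 and not picked by their values, were counted for comparison. The window of Batf3 overlaps that of Atf3, so summits in the overlap count in both sets. The windows of the 17 genes held 259 WT and 120 KO H3K9me3 summits, with more in KO cells only at Jdp2, at 7 and 12. By the rule 9 of 16 genes with enough summits were lower (42.8% of all genes) and 0 higher (11.7%), and 10 of 17 had H3K9me3 at the start in WT cells alone (31.4%). The largest differences were at Btg2, an antiproliferative gene, with 21 WT and 2 KO summits, at Ccn2, a matricellular growth factor gene, with 22 and 4, and at Dusp1, a MAP kinase phosphatase gene, with 36 and 18. For H3K27me3, 5 of 8 were lower (28.4% of all genes) and 0 higher (2.62%). The largest differences were at Batf2 with 23 and 9, Batf with 17 and 6 and Egr4 with 35 and 26, of which Egr4 did not meet the rule. Brg1 was at 13 of the 17 starts (39.6% of all genes), Arid1a at 10 (35.2%), Ctcf at 13 (42.5%) and Rad21 at 15 (50.6%).

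The genes lie in the GENCODE vM21 annotation at chr12:85473890-85477273 for Fos, chr7:19302696-19310051 for Fosb, chr5:32135801-32157842 for Fosl2, chr4:95049034-95052222 for Jun, chr8:84974484-84978718 for Junb, chr8:70698949-70700616 for Jund, chr1:191170296-191218039 for Atf3, chr18:34859823-34864984 for Egr1, chr10:67535475-67542188 for Egr2 and chr8:84661331-84662852 for Ier2. Fosb, Jun, Junb, Atf3 and Ier2 are on the minus strand. The windows of Fos, Fosl2 and Jun held no other protein-coding start, while that of Junb held 9, that of Fosb 6, that of Jund 5 and that of Ier2 3, so that part of the flank counts of these genes belongs to their neighbours.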

How the data were processed

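ChIP-seq of AB17 cells gave 8 peak lists from 10 samples, and the 2 input samples were used only through the authors' peak calling. The authors used bowtie2 for alignment to mm10, SAMtools to drop reads of low quality, Picard to drop duplicates and MACS2, at its defaults and against input, to call peaks. Versions and pooling are not given in the sources used here. The deposited lists hold 1 summit per peak with its −log10 q-value, a unit read from the values, which start at 1.30. Samples were grouped by genotype and antibody from their labels.

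Counts covered the autosomes and both sex chromosomes and were made with python 3.11.15, numpy 2.4.6 and pandas 2.3.3 around genes of GENCODE vM21. Summits of 2 lists within 1 kb were paired, and exact binomial intervals (scipy 1.17.1) cover counting error only. Every listed gene was named. The strongest start summit of each gene in each list is printed in the plot of genes by lists. Only some of the strongest window summits were named, so the summits described in the text are not a complete set. The other genes, described by counts, were named where they had the 3 largest differences for a mark, and Jdp2 was named after its values were seen. Other named summits were also chosen after their values were seen. The genes, lists and rules were chosen with earlier results of these data known. Broad marks called as narrow peaks break into strings of summits, so counts reflect depth and spread as well as occupancy.

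The backgrounds of genes with Brg1 and Arid1a, of 20 kb flanks and of every annotated start, the 1 Mb surroundings, and the searches for TGACGT and TATAAA and from 500 bases upstream of the starts were added after seeing the data.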

Additional observations from a re-analysis of the deposited data

How the results depend on the processing

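Of 79 alternative values, 61 were classed as the same, 18 as moved and 0 as reversed. Values classed as the same could still differ in size. Examples are Brg1 starts, which went from 10 to 7 at a strength of at least 3, and starts with H3K9me3 in WT cells alone, from 6 to 8 when every annotated start was used. The H3K9me3 ratio stayed between 0.274 (flanks of 20 kb) and 0.393 (flanks of 100 kb) under every alternative run. The count of genes with fewer KO summits stayed between 5 (strength of at least 3) and 10 (flanks of 20 kb). At a strength of at least 3 Jun and Egr1 held fewer than the 4 WT summits that a call needs, so they could not be called. The H3K27me3 ratio, 0.556, ran from 0.5 (flanks of 20 kb) to 0.714 (equal numbers of peaks), with 0.682 at a strength of at least 3, 0.688 with flanks of 100 kb and 0.696 with merged summits. The count of genes with fewer H3K27me3 summits, 2, was 1 with flanks of 100 kb, 1 with equal numbers of peaks and 1 with summits within 3 kb merged. It was 0 at a strength of at least 3, where neither Atf3 nor Ier2 held the 4 WT summits needed for a call. At that strength the count of genes with H3K9me3 at the start in KO cells alone went from 0 to 1, Fosl2, and Arid1a starts from 8 to 5. With starts of 1 kb Brg1 went from 10 to 6 and Ctcf from 9 to 5. Of the changed gene counts given here, only the 10 with flanks of 20 kb had a share of all genes counted beside it, 51.1%. With pairing at 500 bp the shares fell to 26.7% for H3K27me3 in WT and KO, 41.1% for Rad21 with Ctcf, 31% for Brg1 with Arid1a and 27.1% for Brg1 with Rad21. At 2 kb they were 69.6%, 60.5% and 66.7% for the last 3 and 21.4% for H3K9me3. At a strength of at least 3 the Brg1 shares were 32% with Arid1a and 38.7% with Rad21. A narrower or wider distance counts fewer or more partners by construction, and the cause of the other changes was not tested. No replicate could be left out, since each group is 1 library. No paired analysis was possible because each group has 1 library and the results come from no test.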
